A study of Mus musculus with 231 samples.

Results

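miR-296 and miR-298 are microRNAs (miRNAs) made from 2 neighbouring hairpins of the imprinted Gnas cluster. Their 4 mature forms, miR-298-5p, miR-298-3p, miR-296-5p and miR-296-3p, are 4 of the 1863 mature miRNAs in the training counts. They were chosen by their level at month 3, when they were high in some leukemia-model mice. That contrast is therefore given as a description, and tests are confined to the other months, to comparisons within each arm and to a separate validation cohort. The study followed small RNA over time in mononuclear cells of peripheral blood (PBMC), all from the C57BL/6 strain. CM mice carry a conditional knock-in of the Cbfb-MYH11 fusion gene (Cbfb56M/+ Mx1-Cre, genotype code CHW), the mouse counterpart of the inv(16) lesion of human acute myeloid leukemia. Every mouse, control littermates (Ctrl, genotype codes HW, CW or WT, not explained in the labels) included, received 7 intraperitoneal doses of poly(I:C) at 14 mg/kg every other day from 6 to 8 weeks of age. Poly(I:C) induces interferon, which switches on the Mx1 promoter that drives Cre. Mx1-Cre acts in blood cells and also in other tissues such as liver, so induction is not confined to blood. The fusion transcript itself is not measured in small RNA. Month 0 is the sample before induction.

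The training cohort held 53 libraries from 7 CM mice and 76 from 7 Ctrl mice, of 1792809 to 7958411 counts each. Females were 4 of the 7 in CM and 2 of the 7 in Ctrl. Mice are separate animals. The validation cohort came from 10 CM and 6 Ctrl mice, and only its 12 libraries of point 5 (6 CM, 6 Ctrl) were deep, at 1645456 to 5445215 reads. The running numbers in the sample titles of CM mouse 3334 and Ctrl mouse 3335 change places between months 5 and 6, and results that moved without both mice are given below. Training libraries also carry a G number from G1 to G7, which the labels do not define.

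In background, the Gnas cluster is an imprinted locus, in which some transcripts are made from the maternal allele and others from the paternal allele alone. The miR-296 and miR-298 hairpins come from a paternally expressed transcript that runs antisense to Gnas, and alleles cannot be told apart in these data. Drosha and Dicer cut each hairpin into a 5p and a 3p arm, and usually only 1 of the arms is loaded into Argonaute and kept. The seed, bases 2 to 8, guides the loaded arm to its target messenger RNAs. miR-296-5p is known for targeting HGS, which sorts growth factor receptors for degradation, in endothelial cells, and miR-298 for targeting BACE1, the beta-secretase of amyloid processing.

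The mature sequences are shown because the 4 forms behaved differently and carry different seeds. They are given from RefSeq (GRCm38.p6), 5′ to 3′, with the seed in capitals. All lie on the minus strand of chromosome 2.
mmu-miR-298-5p (chr2:174267553-174267575): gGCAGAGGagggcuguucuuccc
mmu-miR-298-3p (chr2:174267512-174267535): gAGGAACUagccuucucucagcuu
mmu-miR-296-5p (chr2:174267093-174267113): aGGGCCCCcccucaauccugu
mmu-miR-296-3p (chr2:174267058-174267079): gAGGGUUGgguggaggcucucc
No seed was shared among the 4, nor with any of the 1679 mature mouse miRNAs in the RefSeq table. The hairpins from which they are cut are shown with both mature arms in capitals, so that the pairing of the 5p and 3p arms can be seen.
Mir298 (chr2:174267504-174267585, 82 bases): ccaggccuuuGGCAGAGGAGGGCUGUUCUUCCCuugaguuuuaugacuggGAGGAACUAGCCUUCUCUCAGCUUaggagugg
Mir296 (chr2:174267047-174267125, 79 bases): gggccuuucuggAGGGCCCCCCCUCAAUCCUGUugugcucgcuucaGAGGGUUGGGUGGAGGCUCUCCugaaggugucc
Only 378 bases separate the hairpins, and 0 other RefSeq genes overlap them or the interval. Gnasas1 (Nespas, the antisense transcript, chr2:174281237-174295436) ends 13651 bases away, and Gnas itself, which encodes the stimulatory G protein alpha subunit, lies 16734 bases away. The deposited files hold no coordinates.

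Levels are CPM, counts per 1000000 counts of the library after edgeR's TMM scaling. The scaling lines up the libraries on the bulk of their miRNAs. miR-298-5p, miR-296-5p and miR-296-3p had counts in every training library of both arms, and they passed the filter on low values in every comparison. At month 6 miR-296-3p was low in both arms, with 6 to 20 counts in CM and 7 to 16 in Ctrl. miR-298-5p ranged from 4 to 1691 counts, miR-296-5p from 5 to 433 and miR-296-3p from 2 to 532. miR-298-3p, the opposite arm of the miR-298 hairpin, was at 0 in 26 of 53 CM and 41 of 76 Ctrl libraries and never exceeded 9 counts. It passed the filter in no comparison and was not tested. Of the 4 members, 3 were therefore tested throughout.

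At month 3, the contrast by which the members were chosen, miR-298-5p was 7.14 CPM in the lowest, 10.4 in the median and 251 in the highest of 7 CM mice, against 4.51, 6.51 and 9.53 in 7 Ctrl mice. miR-296-3p was 3.97, 6.69 and 104.01 CPM in CM, against 1.44, 3.78 and 5.24 in Ctrl. miR-296-5p was 7.69, 13.9 and 57.2 CPM in CM, against 6.05, 9.69 and 11.9 in Ctrl. For each of the 3 forms, 5 of 7 CM mice lay above every Ctrl mouse, and the highest CM value came from mouse 3357. No test is given for this month.

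For miR-298-5p, the highest levels relative to Ctrl mice of the same month were reached in 3 CM mice. These were mice 3357 and 3338 at months 3 and 4 and mouse 3370 at month 9. In mouse 3357, a female, miR-298-5p was 23.4, 16.2 and 28.05 CPM at months 0, 1 and 2, then 251 CPM at month 3 (995 counts, 95% exact interval 235 to 267) and 392 CPM at month 4, its last library (1691 counts, 374 to 411). Such intervals cover counting error only. The fold over the Ctrl median of the same month was 53.5 at month 4, when the 7 Ctrl mice spanned 3.09 to 8.31 CPM.

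In mouse 3338, also a female, miR-298-5p was 24.4, 17.0 and 9.52 CPM at months 0 to 2, then 32.6 at month 3 and 54.7 at month 4, its last library (214 counts). In the male mouse 3370 miR-298-5p stayed between 7.71 and 13.4 CPM from month 2 to month 8 and was 153 CPM at month 9, its last library (496 counts, 140 to 167). The 7 Ctrl mice of month 9 spanned 2.70 to 6.39 CPM. The high level of mouse 3370 thus appeared between consecutive monthly libraries, and later than that of mouse 3357.

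The last libraries of the other CM mice did not reach such levels. miR-298-5p was 8.66 CPM in mouse 3334 at month 6.5, 15.004 in mouse 3336 at month 7, 8.60 in mouse 3341 at month 6 and 4.69 in mouse 3368 at month 10. These were 1.89, 2.93, 1.88 and 1.68 times the median of Ctrl libraries (of month 6 for mouse 3334), and each was above every one of them. The libraries in which miR-298-5p exceeded 100 CPM carry the G numbers G5, G1 and G3. In PBMC, more cells of a type and more RNA per cell cannot be told apart.

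**Figure D1:**
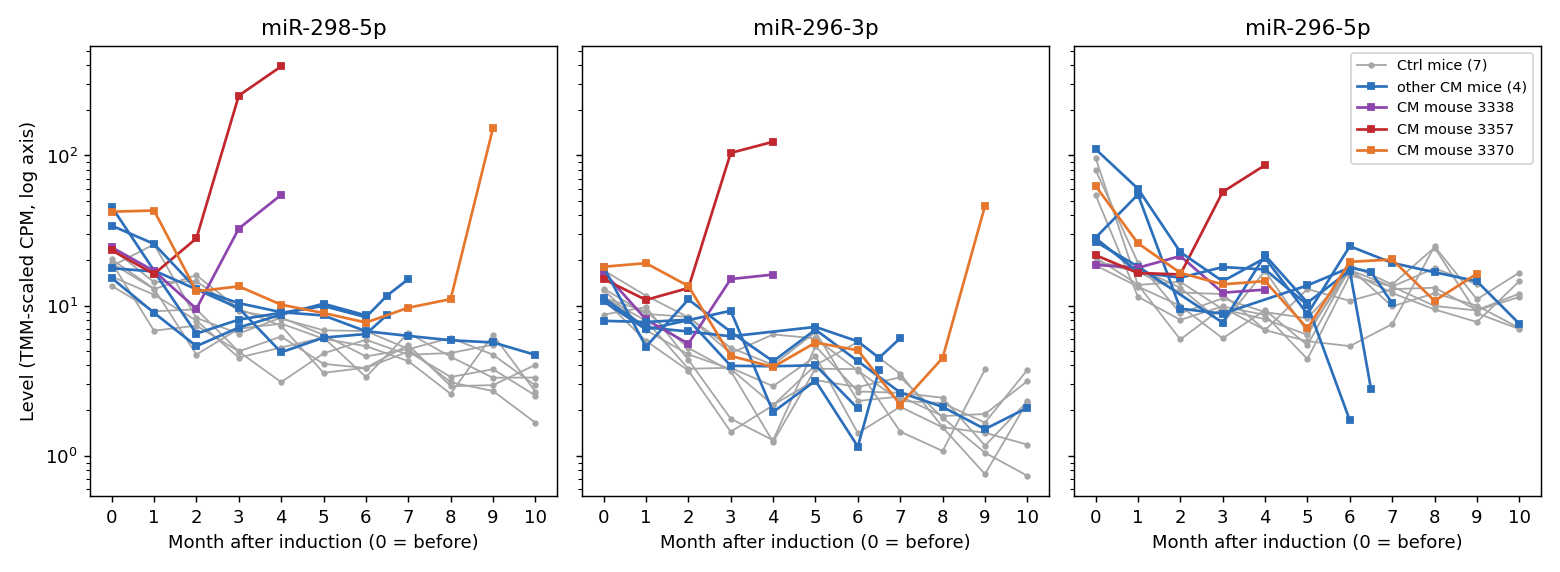
Levels of miR-298-5p, miR-296-3p and miR-296-5p (TMM-scaled CPM, log axis) by month after induction in each of 7 CM and 7 Ctrl training mice, 1 line per mouse and 1 point per library. miR-298-5p and miR-296-3p reach high levels in mice 3357 and 3370 (392 and 153 CPM for miR-298-5p in the last libraries), while the Ctrl lines of these 2 forms drift down.

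miR-296-3p, from the neighbouring hairpin, followed miR-298-5p in each of these mice. In mouse 3357 it was 15.02, 10.9, 13.1, 104.01 and 123.4 CPM at months 0 to 4. In mouse 3370 it was 4.48 CPM at month 8 and 46.2 at month 9, against 0.754 to 3.75 in Ctrl. In mouse 3338 it was 15.02 CPM at month 3 and 16.1 at month 4, which is close to its month 0 level of 16.8 but 7.39 times the Ctrl median of month 4.

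miR-296-5p, the opposite arm of the same hairpin, stood less far above Ctrl. It was 86.3 CPM in mouse 3357 at month 4, or 9.97 times the Ctrl median. In mouse 3370 at month 9 it was 16.3 CPM, or 1.75 times the median, and in mouse 3338 at month 4 it was 12.8 CPM, or 1.48 times the median. miR-298-3p reached 5 and 8 counts in mouse 3357 at months 3 and 4.

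Among the 608 miRNAs with a mean of at least 1 CPM, miR-298-5p and miR-296-3p ranked 1 and 2 for the log2 difference from the Ctrl median in mouse 3357 at months 3 and 4 and in mouse 3370 at month 9. miR-296-5p ranked 9 and 7 in mouse 3357. In mouse 3338 at month 4 the ranks were 26 for miR-298-5p, 33 for miR-296-3p and 172 for miR-296-5p. In the last libraries of the other 4 CM mice miR-298-5p ranked 62 at best. The ranks of mouse 3357 at month 3 belong to the contrast by which the members were chosen.

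miR-298-5p was also often above Ctrl outside these high libraries from month 4 on. At month 0 it was above every Ctrl mouse in 4 of 7 CM mice. At months 1 and 2 this held in 2 of 7 and 1 of 6 CM mice. From month 4 on, leaving out mice 3357 and 3338 at month 4 and mouse 3370 at month 9, it lay above every Ctrl library of the same month in 14 of 21 CM libraries (66.7%), against a median of 2 of 21 (9.52%) and a 90th percentile of 6 of 21 (28.6%) over the 608 miRNAs. miR-296-5p did so in 9 of 21 and miR-296-3p in 5 of 21. These libraries share mice, so the shares are a description. At month 5, for example, miR-298-5p was 6.12, 8.93 and 10.3 CPM (lowest, median, highest of 5 CM mice) against 3.57, 6.01 and 6.84 in 7 Ctrl mice, with 4 of 5 CM mice above every Ctrl mouse. At month 6 it was 6.46, 7.71 and 8.60 CPM against 3.34, 4.58 and 6.76, with 3 of 5 above.

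The question of whether CM and Ctrl mice differed was tested month by month with edgeR's quasi-likelihood test, with p-values adjusted over all miRNAs tested (Benjamini-Hochberg) and an adjusted p under 0.05 as the call. Only miR-296-5p at month 1 was called. It was 16.5, 18.2 and 60.1 CPM in 7 CM mice and 11.5, 13.8 and 19.3 in 7 Ctrl mice, with 3 CM mice above every Ctrl mouse. Its log2 fold change was 0.96 ± 0.33 (SE, edgeR adjusted p = 0.0431). At month 1, 27.5% of the 472 miRNAs tested were called and 14.6% were called higher in CM, so 1 of 3 members is near the background. With the G number as a covariate the log2 fold change was 0.80 (edgeR adjusted p = 0.233), and the call was lost.

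At month 4 the differences were the largest of these months and rested on mouse 3357. miR-298-5p was 4.88, 9.59 and 392 CPM in 6 CM mice against 3.09, 7.33 and 8.31 in Ctrl, and 5 of 6 CM mice were above every Ctrl mouse. Its log2 fold change was 3.71 ± 0.96 (edgeR adjusted p = 0.0671), and 1.58 without mouse 3357 (edgeR adjusted p = 0.262). miR-296-3p differed by 3.23 ± 0.93 (edgeR adjusted p = 0.0992) and by 1.17 without that mouse. miR-296-5p differed by 1.68 ± 0.46 (edgeR adjusted p = 0.0790) and by 0.91 without it, with 4 of 6 CM mice above the Ctrl range. None of the 3 was called, where 0.837% of 478 miRNAs were called. All 3 had an unadjusted p under 0.05, as had 16.9% of the 478. DESeq2, which called 4.86% of 473 miRNAs, called miR-298-5p and miR-296-3p and gave no adjusted p for miR-296-5p. At month 4 alone the G number could not be added, because arm and G number cannot be told apart there.

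In the other months 0 of 3 members were called by edgeR. At month 0, before induction, miR-298-5p was 15.3, 24.4 and 45.5 CPM in CM against 13.5, 19.1 and 24.03 in Ctrl, and 4 of 7 CM mice lay above every Ctrl mouse. The difference on the log2 scale was 0.61 ± 0.24 (SE, edgeR adjusted p = 0.303). It was the 1 member with an unadjusted p under 0.05, as had 13.0% of 478 miRNAs, of which 0.209% were called. At month 2, where 13.5% of 481 miRNAs were called, miR-296-5p differed by 0.69 ± 0.24 (edgeR adjusted p = 0.0619) and miR-296-3p by 0.80 ± 0.28 (edgeR adjusted p = 0.0670). DESeq2 called both at month 2, among 21.5% of 478 miRNAs. In that month 5 of 6 CM mice for miR-296-5p and 3 of 6 for miR-296-3p were above every Ctrl mouse.

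At months 5 and 6, 0% of 505 and 0% of 444 miRNAs were called by edgeR, with 21.6% and 6.98% at an unadjusted p under 0.05. DESeq2 called 21 and 0. miR-298-5p was the 1 member with an unadjusted p under 0.05 in each month, at log2 fold changes of 0.74 ± 0.20 (edgeR adjusted p = 0.106) and 0.63 ± 0.25 (edgeR adjusted p = 0.499). At month 5 DESeq2 called miR-298-5p, among 4.24% of 495 miRNAs (DESeq2 adjusted p = 0.0424). miR-296-3p differed by 0.19 ± 0.25 at month 5 and 0.14 ± 0.44 at month 6 on the log2 scale, within its standard error. miR-296-5p differed by 0.53 ± 0.26 and 0.10 ± 0.45.

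Counts were then summed per mouse over months 1, 2, 4, 5 and 6, which leaves out the month that chose the members and gives 1 value per mouse. The sums do not cover the same months in both arms. All 7 Ctrl mice had every month, while CM mice 3338 and 3357 had only months 1, 2 and 4. Mouse 3334 lacked month 2 and mouse 3336 month 4. Over months 1, 2 and 4 alone, still incomplete in mice 3334 and 3336, 2 members were called, among 24.1% of 651 miRNAs. miR-296-5p was higher in CM, at 13.2, 16.7 and 40.1 CPM (lowest, median, highest of 7) against 7.72 to 13.1 CPM in 7 Ctrl mice. All 7 CM mice lay above all 7 Ctrl mice, a separation seen in 2.27% of 748 miRNAs tested, although the closest values were 13.17 in mouse 3341 and 13.14 in Ctrl mouse 3349. Its log2 fold change was 1.04 ± 0.23 (edgeR adjusted p = 0.00550), and it was 0.78 without mouse 3357 (edgeR adjusted p = 0.00830). It was called in every one of the 24 fits made of this comparison. None of the 24 carried the G number as a covariate, and each sum mixes libraries of different G numbers. That covariate removed the call of miR-296-5p at month 1.

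miR-298-5p was also called higher in the summed counts, but through mouse 3357. The 7 CM mice had 7.81, 9.54, 22.9, 8.17, 149, 12.4 and 14.9 CPM (mice 3334, 3336, 3338, 3341, 3357, 3368 and 3370), against 5.36 to 11.01 (median 7.46) in Ctrl, and 4 of 7 were above every Ctrl mouse. The log2 fold change of 2.07 ± 0.63 (edgeR adjusted p = 0.0287) became 0.71 without mouse 3357 (edgeR adjusted p = 0.0696). Sex was unevenly spread over the arms, and with sex as a covariate it was 1.44 (edgeR adjusted p = 0.177). The call was also lost without Ctrl mouse 3339, 3340 or 3350 (edgeR adjusted p = 0.0616, 0.0548 and 0.0601).

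miR-296-3p was not called, at 1.41 ± 0.52 on the log2 scale (edgeR adjusted p = 0.0598), with 3 of 7 CM mice above the Ctrl range of 3.89 to 6.56 CPM. DESeq2 called it (1.41, DESeq2 adjusted p = 0.0244) and with it all 3 members, among 27.7% of 748 miRNAs. Without mouse 3357 it was 0.41 (edgeR adjusted p = 0.258), and without mice 3334 and 3335 it was 1.67 (edgeR adjusted p = 0.0336). Thus 2 of 3 members were called where 23.5% of miRNAs were called in either direction and 15.1% higher in CM. Mouse 3357 supplied both month 3, which chose the members, and month 4, which enters these sums.

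**Figure D2:**
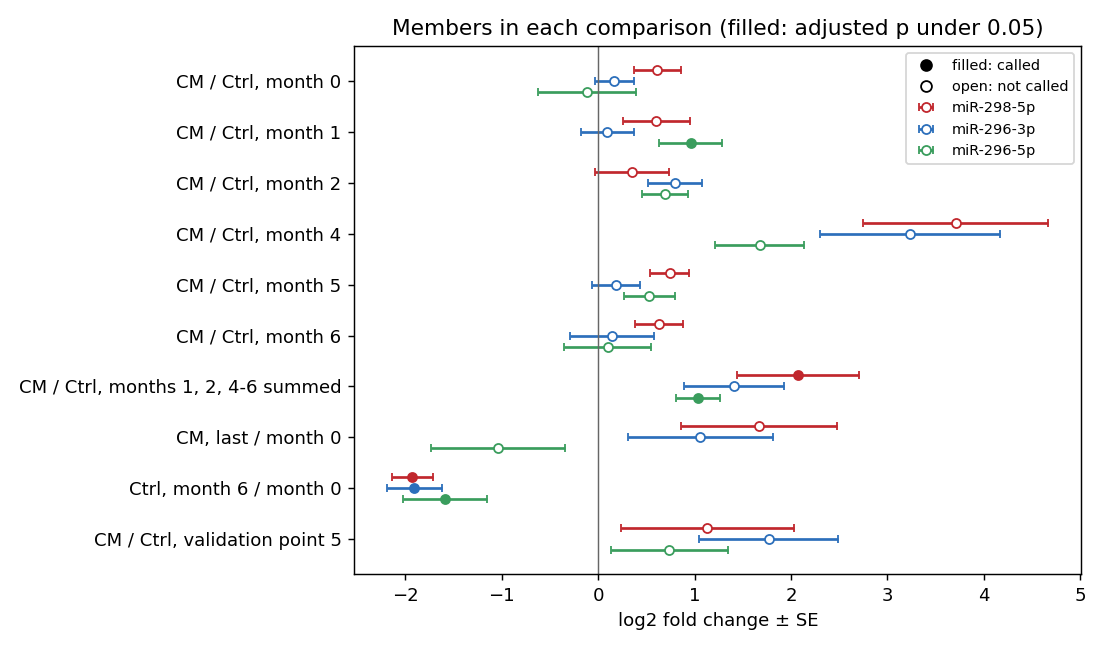
Fitted log2 fold change with its SE for miR-298-5p, miR-296-3p and miR-296-5p in each comparison tested, filled where the adjusted p is under 0.05 (edgeR, limma at validation point 5). The called differences are miR-296-5p at month 1, miR-298-5p and miR-296-5p in the summed counts, and all 3 forms between months 0 and 6 in Ctrl mice.

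In Ctrl mice the 3 forms were lower at month 6 than at month 0. At month 0 the 7 Ctrl mice had 13.5, 19.1 and 24.03 CPM of miR-298-5p (lowest, median, highest), and at month 6 they had 3.34, 4.58 and 6.76, with no overlap. The log2 fold change was -1.93 ± 0.21 (edgeR adjusted p = 3.44e-05). By month 10 the 6 Ctrl mice left spanned 1.66 to 4.03 CPM. miR-296-3p went from 8.70, 11.3 and 17.2 CPM to 1.41, 2.87 and 5.73, also with no overlap, at -1.91 ± 0.28 (edgeR adjusted p = 0.000316). A full separation of this kind, every month 6 library under every month 0 library, was seen in 2.95% of 474 miRNAs.

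miR-296-5p fell by 1.59 ± 0.43 on the log2 scale in Ctrl mice (edgeR adjusted p = 0.0194), from 18.5, 20.9 and 96.7 CPM to 5.37, 16.7 and 18.6, with an overlap. All 3 members were called lower, where 20.5% of miRNAs were called in either direction and 9.70% lower at month 6. All 7 Ctrl mice were lower at month 6 than at month 0 for each of the 3 forms. The calls held with the mouse as a block. The call of miR-296-5p was lost without mouse 3340 (-1.40, edgeR adjusted p = 0.0629) or mouse 3350 (-1.55, edgeR adjusted p = 0.0590), which with mouse 3342 had the high month 0 levels of this arm (80.3, 54.6 and 96.7 CPM, G numbers G5, G4 and G5). The Ctrl median of miR-296-5p was 6.38 CPM at month 5 and 16.7 at month 6, so its course was not a steady fall. Age, time since poly(I:C) and time in the study run together in this comparison and cannot be told apart.

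CM mice did not all share this fall. Between month 0 and the last library, miR-298-5p was higher at the end in 3 of 7 CM mice (by 4.01 in mouse 3357, 1.83 in mouse 3370 and 1.13 in mouse 3338 on the log2 scale) and in 0 of 7 Ctrl mice at month 6. miR-296-3p was higher at the end in 2 of 7 CM mice (3357 and 3370), and miR-296-5p in 1 of 7 (3357). Over the 7 CM mice, the change to the last library was 1.67 ± 0.81 for miR-298-5p (edgeR adjusted p = 0.113), 1.06 ± 0.75 for miR-296-3p (edgeR adjusted p = 0.270) and -1.04 ± 0.69 for miR-296-5p (edgeR adjusted p = 0.243) on the log2 scale. With the mouse as a block these were 0.22, -0.28 and -1.78 (edgeR adjusted p = 0.844, 0.762 and 0.0868). Thus 0 of 3 members were called by edgeR or by DESeq2, where edgeR called 39.0% of 446 miRNAs, and 0 of 3 had an unadjusted p under 0.05, where 48.9% of them had. Without mouse 3357, miR-296-5p was called lower at the end (-2.23, edgeR adjusted p = 0.0143). The end point differs between mice, from month 4 to month 10.

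In 2 late CM libraries miR-296-5p was low while miR-298-5p was not. miR-296-5p was 1.72 CPM (5 counts) in mouse 3341 at month 6 and 2.78 CPM (9 counts) in mouse 3334 at month 6.5, both under the lowest Ctrl library of month 6 (5.37 CPM). In the same libraries miR-298-5p, at 8.60 and 8.66 CPM, was above the highest Ctrl library (6.76 CPM). miR-296-3p was inside the Ctrl range in both, at 2.06 and 3.71 CPM. The other CM libraries of month 6 did not share the low level, with 17.1 CPM of miR-296-5p in mouse 3334, 17.9 in mouse 3336, 19.6 in mouse 3370 and 24.9 in mouse 3368, the last pair above the highest Ctrl library (18.6 CPM).

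The ratio of arms within a library is free of scaling between libraries, and it was above every Ctrl library in 8 CM libraries. The counts of miR-296-3p over miR-296-5p had a median of 0.4 in 53 CM libraries (0.0672 to 2.83). In 76 Ctrl libraries the median was 0.292 (0.0606 to 1.07). These libraries share mice, and the arms are spread differently over the months, with 2 CM and 7 Ctrl libraries at month 9. The Ctrl ratio was 0.108 to 0.888 at month 0 and 0.0606 to 0.258 at month 8. The medians therefore do not compare the arms at equal times. The ratio was 1.82 and 1.43 in mouse 3357 at months 3 and 4, 1.26 in mouse 3338 at month 4 and 2.83 in mouse 3370 at month 9. The other 4 CM libraries above the highest Ctrl library had lower levels of both forms, with a ratio of 1.2 in mouse 3334 at month 3, 1.33 in mouse 3334 at month 6.5, 1.23 in mouse 3338 at month 3 and 1.2 in mouse 3341 at month 6. The last ratio rests on 6 over 5 counts, and that of mouse 3334 at month 6.5 on 12 over 9. The libraries of mice 3357, 3338 and 3334 at month 3 belong to the contrast by which the members were chosen. The ratio of miR-298-5p to miR-296-3p, across the hairpins, had medians of 2.17 in CM (0.667 to 5.63) and 1.74 in Ctrl (0.444 to 5). The same limit holds for these medians. This ratio was 2.41 and 3.18 in mouse 3357, 3.397 in mouse 3338 at month 4 and 3.31 in mouse 3370 at month 9, inside the Ctrl range.

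**Figure D3:**
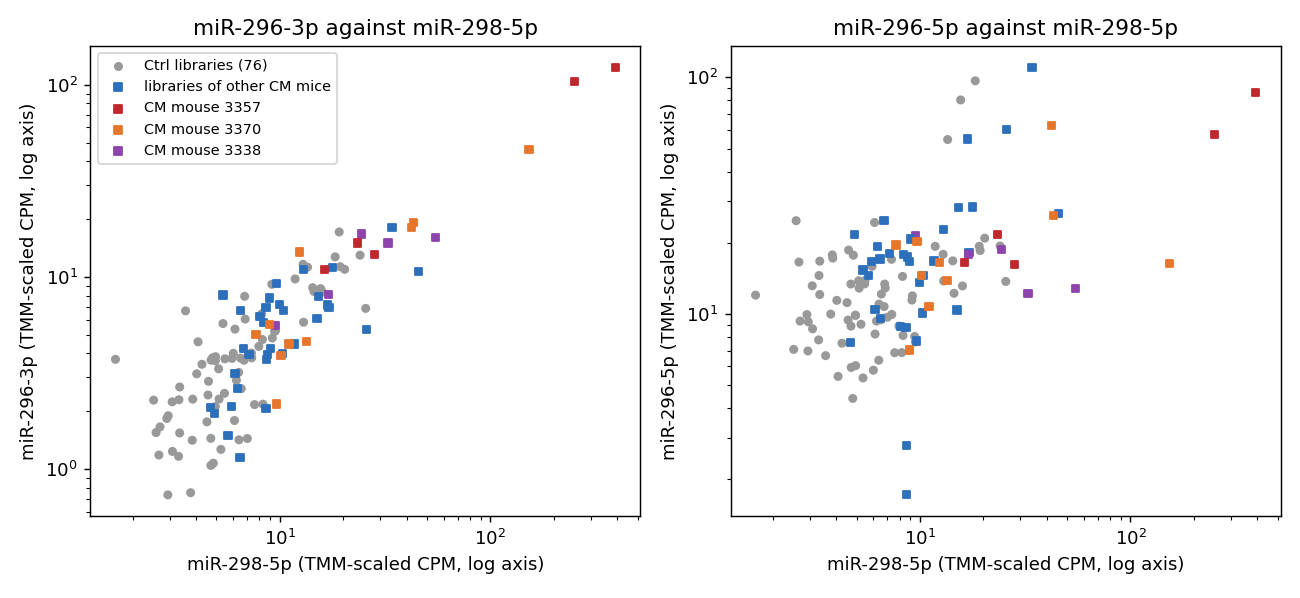
miR-296-3p (left) and miR-296-5p (right) against miR-298-5p in all training libraries (53 CM, 76 Ctrl), 1 point per library (TMM-scaled CPM, log axes). miR-296-3p tracks miR-298-5p over the whole range (r = 0.88), while miR-296-5p is spread widely at a given miR-298-5p level (r = 0.55). The libraries of month 3, by which the members were chosen, are included.

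Across the training libraries, which share mice, the miRNA most like miR-298-5p was miR-296-3p, with a Pearson correlation of log2(CPM + 1) of 0.88. The same pair came first within the 53 CM libraries (0.90) and within the 76 Ctrl libraries (0.79). All these correlations include the libraries of month 3, by which the members were chosen, so the likeness in CM is partly set by that choice. The next most like miR-298-5p, leaving out members, were miR-6390 (0.60), miR-3968 (0.57), miR-27b-3p (0.56), miR-27a-5p (0.55) and miR-874-3p (0.54). For miR-296-3p they were miR-27b-3p (0.63), miR-211-5p (0.62), miR-874-3p (0.62), miR-150-3p (0.62) and miR-342-3p (0.56). miR-296-5p ranked 6 for likeness to miR-298-5p (0.55) and 19 for likeness to miR-296-3p (0.50), the other arm of its own hairpin. Read from miR-296-5p, miR-298-5p was the most alike of all and miR-296-3p ranked 4. miR-296-5p ranked 2 for likeness to miR-298-5p within CM libraries (0.54) and 60 within Ctrl libraries (0.43).

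The validation cohort was examined at point 5 in the deposited CPM, which here sum to between 6037693 and 16258752 per library, so levels are not comparable with the training cohort. CM mouse 2684, a male, had 12117 CPM of miR-298-5p (4366 reads), while the other 5 CM mice had 50.9 to 95.5 and the 6 Ctrl mice 45.2 to 117.6. It had 4552 CPM of miR-296-3p (1640 reads), against 80.6 to 135.8 in the other CM mice and 35.5 to 85.97 in Ctrl. miR-296-5p was 1582 CPM (570 reads) in this mouse, against 80.6 to 288 and 59.1 to 337. Over the Ctrl median these were 151-fold, 95.2-fold and 17.0-fold, and ranked 1, 2 and 18 of 1132 miRNAs.

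The other 5 CM mice of the validation cohort had 0.633 to 1.19 times the Ctrl median of miR-298-5p, with overlapping ranges. miR-296-3p lay above every Ctrl mouse in 4 of 6 CM mice. Of these, mice 2686 and 2685 were close to the highest Ctrl mouse, at 86.98 and 90.56 CPM (35 and 32 reads) against 85.97. The share of all miRNAs with such a count was not determined. miR-298-3p was at 0 reads in mouse 2684, which allows up to 0.581 in every 1000000 reads, and was above 0 in CM mouse 2718 (5 reads) and Ctrl mouse 2689 (2 reads) alone. In mouse 2684 the ratio of reads of miR-296-3p to miR-296-5p was 2.88, against 0.128 to 1.09 in Ctrl, and that of miR-298-5p to miR-296-3p was 2.66, against 0.828 to 2.71.

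By limma on log2(CPM + 1), the differences at point 5 were 1.13 ± 0.90 for miR-298-5p, 1.77 ± 0.72 for miR-296-3p and 0.74 ± 0.61 for miR-296-5p on that scale (limma adjusted p = 0.941, 0.816 and 0.941). Thus 0 of 3 members were called, 1 of 3 (miR-296-3p) had an unadjusted p under 0.05, and 0% of 930 miRNAs were called, with 54 at an unadjusted p under 0.05. edgeR on whole reads recovered from the CPM gave 4.66, 3.96 and 1.40 on the log2 scale (edgeR adjusted p = 0.285, 0.285 and 0.363) and also called 0 of 478. Without mouse 2684 the differences were -0.085, 0.83 and 0.15 (limma adjusted p = 0.990 for each).

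**Figure D4:**
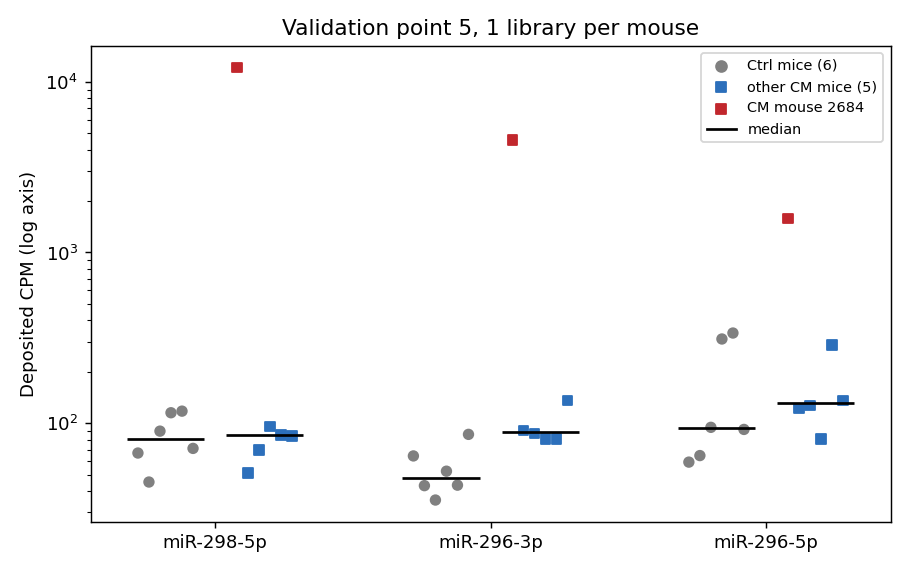
Deposited CPM (log axis) of miR-298-5p, miR-296-3p and miR-296-5p at validation point 5, 1 point per mouse (6 CM, 6 Ctrl), with a line at the median of each arm. CM mouse 2684 stands at 12117, 4552 and 1582 CPM, while the other CM mice overlap with Ctrl for miR-298-5p and miR-296-5p.

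At its other 5 points mouse 2684 had only 2716 to 42596 reads per library, and miR-298-5p had 0 or 1 read at each of them. At point 5 miR-298-5p took 846 of every 1000000 reads. On that scale, 0 reads allow up to 131.8 at point 4 (22754 reads) and up to 197 at point 6 (15233 reads), both under the value of point 5, and up to 1105 at point 3 (2716 reads), where the level of point 5 could have been missed. Whether the shallow libraries hold these miRNAs in the same proportion as the deep ones was not tested.

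Marker miRNAs were summed over lists, as values beside the high libraries. The pan-hematopoietic pair (miR-142a) was at 35761 to 112385 CPM in CM and 33005 to 194350 in Ctrl training libraries, with none of its markers at 0, as the PBMC label asks. Erythroid markers (miR-144, miR-451a and miR-486a/b, the last near-identical copies whose counts are uncertain) spanned 14755 to 621976 CPM in CM and 13146 to 460048 in Ctrl, so red cell RNA was a large and variable part of the libraries. Mature lymphocyte markers (miR-150) spanned 6447 to 55234 and 8597 to 80073, myeloid markers (miR-223) 2016 to 39990 and 1509 to 27361, and progenitor markers 6191 to 17218 and 2792 to 22825 CPM.

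In mouse 3357 at month 4 the erythroid sum (66152 CPM), the lymphocyte sum (47118) and the progenitor sum (14576) were inside the ranges of the 7 Ctrl mice. In mouse 3338 at month 4 all of these were under every Ctrl mouse, with an erythroid sum of 29305 CPM (Ctrl 56872 to 92565), a lymphocyte sum of 8488 (15085 to 80073) and a progenitor sum of 10946 (12715 to 20908). In mouse 3357 at month 3 the erythroid sum (84756 CPM) was above the Ctrl range of 37370 to 62706, and the lymphocyte sum (31353) below that of 45881 to 77702.

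In mouse 3370 at month 9 the direction was opposite, with an erythroid sum of 62334 CPM under the Ctrl range of 74561 to 127299 and a lymphocyte sum of 33888 above that of 9466 to 30624. The pan-hematopoietic sum was above the Ctrl range in mouse 3357 at month 3 (96839 CPM, Ctrl 73012 to 86941) and in mouse 3370 at month 9 (50981, Ctrl 33005 to 46128), and inside it in mice 3357 and 3338 at month 4. In mouse 2684 the lymphocyte sum was 264344 deposited CPM (Ctrl from 339858) and the myeloid sum 30584 (Ctrl from 37884). Both were under every Ctrl mouse of point 5. Its erythroid (690137), progenitor (163103) and pan-hematopoietic (881881) sums were inside the Ctrl ranges. Myeloid sums were inside the Ctrl ranges in mouse 3357 at months 3 and 4 (5190 and 5072 CPM). The same held in mouse 3338 at month 4 (4644) and mouse 3370 at month 9 (6308). So were the progenitor sums of mouse 3357 at month 3 (12289) and mouse 3370 at month 9 (11164).

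Among other tissues, the vessel wall pair (miR-143-3p, miR-145a-5p) was lower in each high library than in every Ctrl library of its month. It was 165 and 73.3 CPM in mouse 3357 at months 3 and 4 (Ctrl 296 to 592 and 241 to 1232), 19.9 in mouse 3338 at month 4, 222 in mouse 3370 at month 9 (Ctrl 518 to 1541) and 1168 in mouse 2684 (Ctrl 2443 to 10597). Neural markers (miR-124-3p, miR-9) were at 5.04, 15.3 and 2.15 CPM in the libraries of mice 3357 and 3370, inside the Ctrl ranges. The endocrine marker miR-375-3p was at 4.03 and 11.4 CPM in mouse 3357, just above the Ctrl ranges (1.43 to 3.98 and 2.66 to 9.03), and at 8.00 in mouse 3370, inside it. The liver marker miR-122-5p did not exceed 2.01 CPM in these 3 libraries and was at 0 in mouse 2684. Muscle markers, at 22.2, 145 and 18.5 CPM in these 3 libraries, were inside the Ctrl ranges. They were under every Ctrl library in mouse 3338 at month 4 (1.02 CPM, Ctrl 4.35 to 238) and in mouse 2684 (671.6, Ctrl 749 to 1792). The part of cell composition in the miR-298-5p and miR-296 levels was not tested.

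Other imprinted miRNAs were examined from a list of 61 (55 from the Dlk1-Dio3 cluster on another chromosome, 6 from Mest, H19 and Igf2). In the summed counts 6 of the 61 passed the filter on low values, and of these 4 were called higher in CM and 0 lower, where 15.1% of all miRNAs tested were called higher. The filter admits a miRNA through the arm in which it is high, so this count says nothing about the list as a whole.

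The 4 called miRNAs belong to the Dlk1-Dio3 cluster, a large maternally expressed group, and their levels are given as a description. Summed per mouse, miR-541-5p was at 1.85 to 46.9 CPM in CM and 1.31 to 2.83 in Ctrl mice, with 5 of 7 CM mice above every Ctrl mouse. miR-379-5p was at 2.14 to 24.2 against 1.36 to 3.44 CPM, with 4 of 7 above, and miR-411-5p at 1.22 to 20.1 against 0.786 to 2.27 CPM, with 3 of 7 above. miR-127-3p was at 2.14 to 23.8 against 1.11 to 2.87 CPM, with 3 of 7 above. It was called in only 11 of the 24 fits of this comparison, with log2 fold changes of 0.42 to 1.75. Without mouse 3370, for example, its call was lost (log2 fold change 1.60, then 0.53, edgeR adjusted p = 0.0806). In the validation cohort 13 of the 61 passed the filter and 0 were called by limma.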

How the data were processed

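Small RNA from PBMC was sequenced by the authors (TruSeq Small RNA). Per the study's methods, reads longer than 16 bases after adapter trimming were aligned with Bowtie to mm9 and mature miRNAs of miRBase release 18 were counted, while the labels name GRCm38. Deposited training values are whole-number counts. The authors also deposited a normalized signal per miRNA, named CPM (edgeR, TMM), for 1895 training and 1817 validation miRNAs. The 90 validation libraries outside point 5 held 1744 to 76906 reads (median 20808) and entered no comparison. The members and lists were chosen with earlier results of these data known. edgeR 4.0.16 (TMM, filterByExpr, quasi-likelihood test) was run in R 4.3.3 on training counts, and limma 3.58.1 on log2(deposited CPM + 1) at point 5, with Benjamini-Hochberg adjustment over all miRNAs tested. Scripts were tested on simulated data. Named miRNAs were the 4 members, the 5 most correlated with miR-298-5p and with miR-296-3p, and called imprinted miRNAs, up to 4 by size of change in the summed counts. Marker lists were summed per library. Alternatives were DESeq2 1.42.0, other scaling, filters and pseudocounts, G number and sex covariates, mouse blocks, and leaving out each mouse. Same-numbered samples are the same mouse, and their deviations from group means correlated between -0.22 and 0.17. A value's precision is limited by its counts.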

Additional observations from a re-analysis of the deposited data

Results flagged for a closer look

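Among 54 groups of 4 to 10 libraries (1 member, 1 arm, 1 month or point, leaving out month 3, which chose the members), 11 held a library far from the rest by the Dixon criterion. Chance gives this in about 1 group in 20 where values are normally distributed and groups independent. These groups share mice, and each of the 11 libraries was the highest of its group, so that rate is only a rough guide. Mouse 3357 stood out in 4 of them. Its miR-298-5p was 28.05 CPM at month 2 (next highest CM mouse 12.9) and 392 CPM at month 4 (next 54.7). At month 4 its miR-296-5p was 86.3 CPM (next 21.7) and its miR-296-3p 123.4 CPM (next 16.1). At month 2 its miR-296-5p and miR-296-3p were not apart from the other CM mice.

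CM mouse 2684 stood apart at validation point 5 for the 3 forms, with 12117 CPM of miR-298-5p (next 95.5), 4552 of miR-296-3p (next 135.8) and 1582 of miR-296-5p (next 288).

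Smaller gaps were found in CM mouse 3370 for miR-296-3p at month 1 (19.2 CPM, next 10.9) and in Ctrl mice, with miR-298-5p at 25.6 CPM in mouse 3342 at month 1 (next 14.3), miR-296-5p at 17.0 CPM in mouse 3349 at month 4 (next 9.33) and miR-296-3p at 3.75 CPM in mouse 3350 at month 9 (next 1.90).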

How the results depend on the processing

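Of the 3 tested members, the number called (main number in brackets) moved under these alternatives. At month 1 (1) it was 0 with the G number as covariate, on the deposited CPM and in the fit over all training libraries with or without the G number, and 0 to 1 when each mouse was left out. At month 2 (0) it was 2 with DESeq2 and 0 to 2 with each mouse left out. At month 4 (0) it was 2 with DESeq2, 1 with no filter, 1 on recovered reads, 3 over all training libraries with or without the G number, and 0 to 2 with each mouse left out. At month 5 (0) it was 1 with DESeq2, 1 without mice 3334 and 3335, and 0 to 1 with each mouse left out. In the summed counts (2) it was 1 with sex as covariate, 1 with limma on mouse means and 1 to 3 with each mouse left out. For the last CM library against month 0 (0) it was 0 to 1 with each mouse left out. Other numbers of called members stayed within 1.5 times. The fit over all training libraries counts the repeated libraries of a mouse as separate and includes month 3, so its p-values are too small.

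Some uncalled changes turned sign. miR-296-5p at month 0 was 0.048 with the G number and -0.53 to 0.21 with each mouse left out, and miR-296-3p at month 0 was -0.063 with the G number. miR-296-3p at month 1 spanned -0.21 to 0.22 with each mouse left out. miR-298-5p at month 2 was -0.35 with the G number and -0.048 to 0.56 with each mouse left out. At month 6 miR-296-5p was -9.52e-05 on the deposited CPM, -0.050 with the month 6.5 libraries and -0.090 to 0.37 with each mouse left out, and miR-296-3p was -1.13 with the G number and -0.072 to 0.40 with each mouse left out. For the last CM library, miR-296-3p was -0.026 on the deposited CPM and -0.28 with the mouse as a block. miR-298-5p at validation point 5 spanned -0.085 to 1.49 with each mouse left out. The cause of these shifts was not tested. The mouse block kept the Ctrl calls (-1.95, -1.34 and -1.96 for miR-298-5p, miR-296-5p and miR-296-3p, edgeR adjusted p = 0.00101, 0.0310 and 0.00434). At month 4 a G number covariate was not run. DESeq2 gave 0.67 for miR-298-5p in the summed counts (DESeq2 adjusted p = 0.0415). edgeR on reads recovered from the deposited CPM, chosen after seeing the data (100% of low values were whole), called 147 of 468 miRNAs at month 1 and 201 of 712 in the summed counts.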

Other observations

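In the 90 shallow validation libraries the arms of the miR-296 hairpin were detected very unequally. miR-296-3p had at least 1 read in 48 of 54 CM and 31 of 36 Ctrl libraries, with up to 58 and 37 reads, while miR-296-5p had reads in 0 of 54 and 1 of 36. miR-298-5p had reads in 20 and 15 of them, never more than 2 reads, and miR-298-3p in 9 and 8. In the 12 deep libraries of point 5 miR-296-5p was not the rarer arm, since the Ctrl ratio of miR-296-3p to miR-296-5p was 0.128 to 1.09. In mouse 2684 the library of point 4 held 51 reads of miR-296-3p among 22754, with 0 of the other 3 forms.

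At month 0, miR-296-5p was high in 5 of 14 libraries, namely 110, 96.7 and 80.3 CPM in mice 3368, 3342 and 3340 (G number G5), 62.7 in mouse 3370 (G7) and 54.6 in mouse 3350 (G4), while the other 9 libraries, of G1, G2, G3, G4 and G6, had 18.5 to 28.4 CPM. The 3 libraries of month 0 with G5 were all among the high ones, in both arms, and the other members did not show this split.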
